A study of Mus musculus with 13 samples.

Results

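Cholesterol synthesis and its control were read through 30 genes, chosen by name for their role in the pathway: enzymes of the mevalonate and sterol steps, the SREBP control proteins, and proteins of sterol transfer, uptake, efflux, storage and LXR signalling. Of these, 29 genes were on the array, with 41 of its 62976 features, and Acat2, the cytosolic acetoacetyl-CoA thiolase, had no feature in the table. Not every step of the pathway was analysed here. The levels are deposited log2 signals from 13 mouse arrays in 7 groups, and 1 unit is a doubling. Each array had a median of 7.488 and a maximum of 18.872 over all features. Signals of different genes come from different probes, so levels were compared between groups and not between genes.

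The starting cells were mouse embryonic fibroblasts (MEF, 2 arrays), labelled wild type with an empty vector, and tail tip fibroblasts (TTF, 2 arrays), labelled wild type with tdTomato. Both were grown for 3 passages in 10% serum. Induced embryonic Sertoli cells carried Nr5a1, Wt1, Dmrt1, Gata4 and Sox9 and are called TTF-ieSC (2 arrays) or MEF-ieSC (1 array) after the fibroblasts of origin. They were kept for 6 months in 2% serum with doxycycline, given as 2 mg/ml in the labels. The native samples carried no transgene and were wild type: the uncultured male gonad at 14.5 days post coitum, immature Sertoli cells from 19 dpc testis after 3 days in 10% serum, and mature Sertoli cells from 8 week old mice after 7 days in 10% serum, with 2 arrays each. Serum concentration and culture time thus differed between the fibroblasts and the induced cells along with the factors. Effects of serum, culture and factors cannot be told apart in these groups. The induced cells also differed from the Sertoli cultures in serum and culture time, and from the gonad in being cultured. Whether a line was 1 clone, and whether replicate arrays came from separate cultures or animals, is not given in the labels, so the p-values cover only how far apart the arrays of a group lay, and that spread could be technical.

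Cells build cholesterol from acetyl-CoA through mevalonate, the isoprenoid farnesyl diphosphate, squalene and lanosterol, and the last enzymes trim lanosterol to cholesterol. SREBP transcription factors raise the genes of these enzymes when membrane sterol is low: Scap escorts them out of the endoplasmic reticulum, and Insig proteins hold Scap back when sterol is ample. LXR receptors sense oxysterols and raise genes of cholesterol efflux. In the testis, cholesterol is the precursor of androgens in Leydig cells, and Sertoli cells take up lipid from dying germ cells and residual bodies.

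The markers of the labelled cell types were read first. The 10 Sertoli markers had a summed log2 level of 19.83 to 19.87 in TTF-ieSC and 19.59 in MEF-ieSC, against 18.99 to 19.31 in the native samples and 13.05 to 15.34 in the fibroblasts. Krt18, Ptgds and Clu made up most of the sum in the induced cells (18.12, 18.08 and 17.84 in TTF-ieSC). Of the 10 genes, 5 were higher and 5 lower in TTF-ieSC than in the immature cultures, against 37.8% and 39.0% of all tested genes. That list includes Wt1 and Sox9, which are also among the introduced factors. Wt1 was 16.48 and 16.58 in the induced cells. Sox9, though introduced, was lower there (9.79 in TTF-ieSC and 9.12 in MEF-ieSC) than in TTF (11.31), MEF (10.88) and the native samples (12.30 to 13.47). Whether these probes also read the introduced copies was not tested. Of 8 fibroblast markers, 7 were lower and 1 higher in each induction, with medians of -6.37 from TTF and -6.90 from MEF. The one that was higher, the matrix proteoglycan gene Dcn, was 17.06 and 16.13 in the induced cells and made up most of their summed level of 16.24 to 17.15, against 19.51 to 19.97 in the fibroblasts. Amh, the anti-Müllerian hormone, was near or under the array median in both kinds of induced cells (7.36 in TTF-ieSC and 7.30 in MEF-ieSC), against 12.34 in the gonad. Cldn11, a Sertoli tight junction gene, was 8.09 and 8.39 in the induced cells against 15.47 and 15.61 in the immature and mature Sertoli cultures. The native samples also held markers of other cells: germ cell markers summed to 16.85 to 16.89 in the gonad and 15.04 to 15.50 in the Sertoli cultures, and steroid-making cell markers to 18.67 to 18.68 and 16.77 to 17.07. Both of these lists were lower in the fibroblasts and induced cells, at 8.71 to 10.37 for germ cells and 14.23 to 14.78 for steroid-making cells. Smooth and peritubular muscle markers summed to 19.63 to 19.89 in the Sertoli cultures, against 16.33 to 16.43 in the gonad and 14.36 to 14.99 in the induced cells; MEF and TTF had 18.62 to 19.99. Fibroblast markers summed to 18.35 to 19.25 in the Sertoli cultures and 18.69 to 18.75 in the gonad. Macrophage markers summed to 14.05 to 14.37 and 13.34 to 13.39 there, against 11.62 to 12.26 in the fibroblasts and induced cells. Endothelial markers summed to 11.92 to 12.79 and 13.51 to 13.52, against 11.935 to 12.91. For the endothelial list, only the gonad was thus above all fibroblast and induced arrays. In samples of mixed cells, fewer cells of a type and less RNA per cell cannot be told apart. The part of these other cells in the results below was not tested.

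The replicate arrays agreed closely for the sterol genes. Their root mean square gap was 0.088 to 0.13 log2 over the members, against 0.167 to 0.31 over all 16658 tested genes. The sets were not matched on signal. Each member was over the array median on all 13 arrays, while a tested gene needed only 2. All 29 genes passed the filter on dim features, and each differed among the 7 groups by limma's moderated F test after Benjamini-Hochberg adjustment, as did 98.0% of all tested genes. The range between the highest and lowest group mean had a median of 2.046 over the 29 genes and of 1.632 over all tested genes. Tests below are limma's, with p-values adjusted over all tested genes, a gene counts as called at an adjusted p under 0.05, and errors are standard errors (SE) of that fit.

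**Figure D1:**
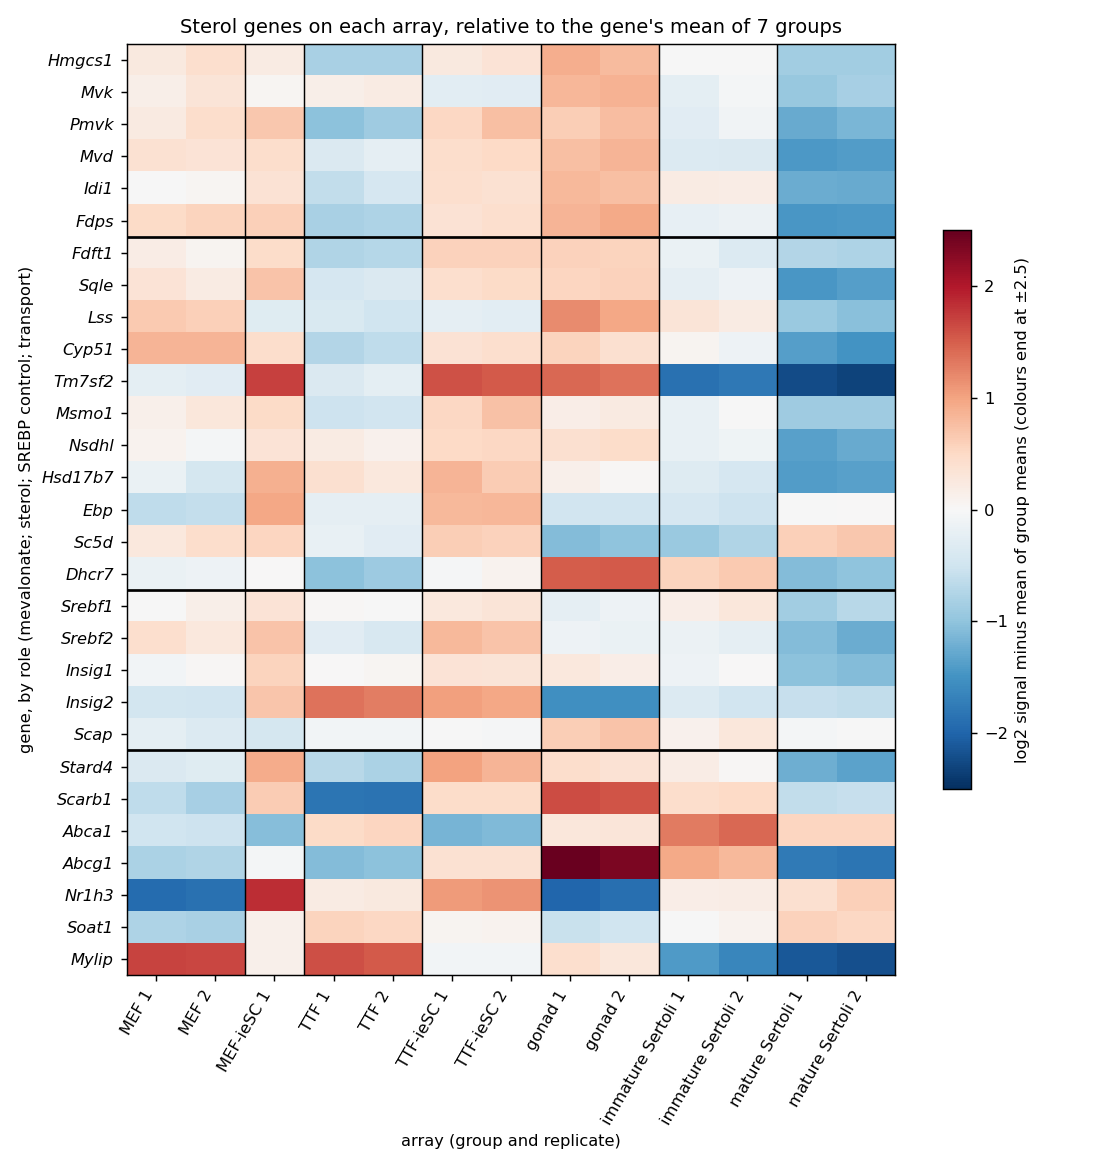
Log2 signal of the 29 genes (rows, by role) on each of the 13 arrays (columns), as the difference from the gene's mean over the 7 groups, with colours ending at 2.5 either way. The mature Sertoli arrays are the lowest for most enzymes, and the TTF-ieSC, MEF-ieSC and gonad arrays are high.

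The enzymes were lowest in the mature Sertoli cultures and high in the gonad and in both kinds of induced cells. The mature cultures had the lowest mean for 15 of 17 enzymes; the exceptions were Ebp, lowest in MEF, and Sc5d, lowest in the gonad. The highest mean was in the gonad for 8 enzymes, in MEF-ieSC for 4, in TTF-ieSC for 3, in MEF for Cyp51 and in the mature cultures for Sc5d. With each gene centred on its mean over groups, the median enzyme stood at 0.61 and 0.75 on the gonad arrays, 0.44 and 0.51 on the TTF-ieSC arrays and 0.45 on the MEF-ieSC array. It stood at 0.19 and 0.28 in MEF, -0.20 and -0.12 in the immature cultures, -0.42 and -0.41 in TTF, and -1.25 and -1.14 in the mature cultures. The groups did not overlap on this measure, except that the MEF-ieSC array lay between the TTF-ieSC arrays.

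Cell division markers were read beside the enzymes. Their summed level was 14.58 to 14.65 in TTF, 16.88 in MEF, 17.27 to 17.29 in the induced cells and 17.63 to 17.69 in the gonad. The mature cultures, with the lowest enzyme levels, had 17.21 to 17.29, and the immature cultures 17.38 to 17.44. TTF, MEF, the induced cells and the gonad thus stood in the same order by cell division as by enzyme level. The Sertoli cultures did not fall into that order. The part of cell division in the enzyme levels was not tested.

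**Figure D2:**
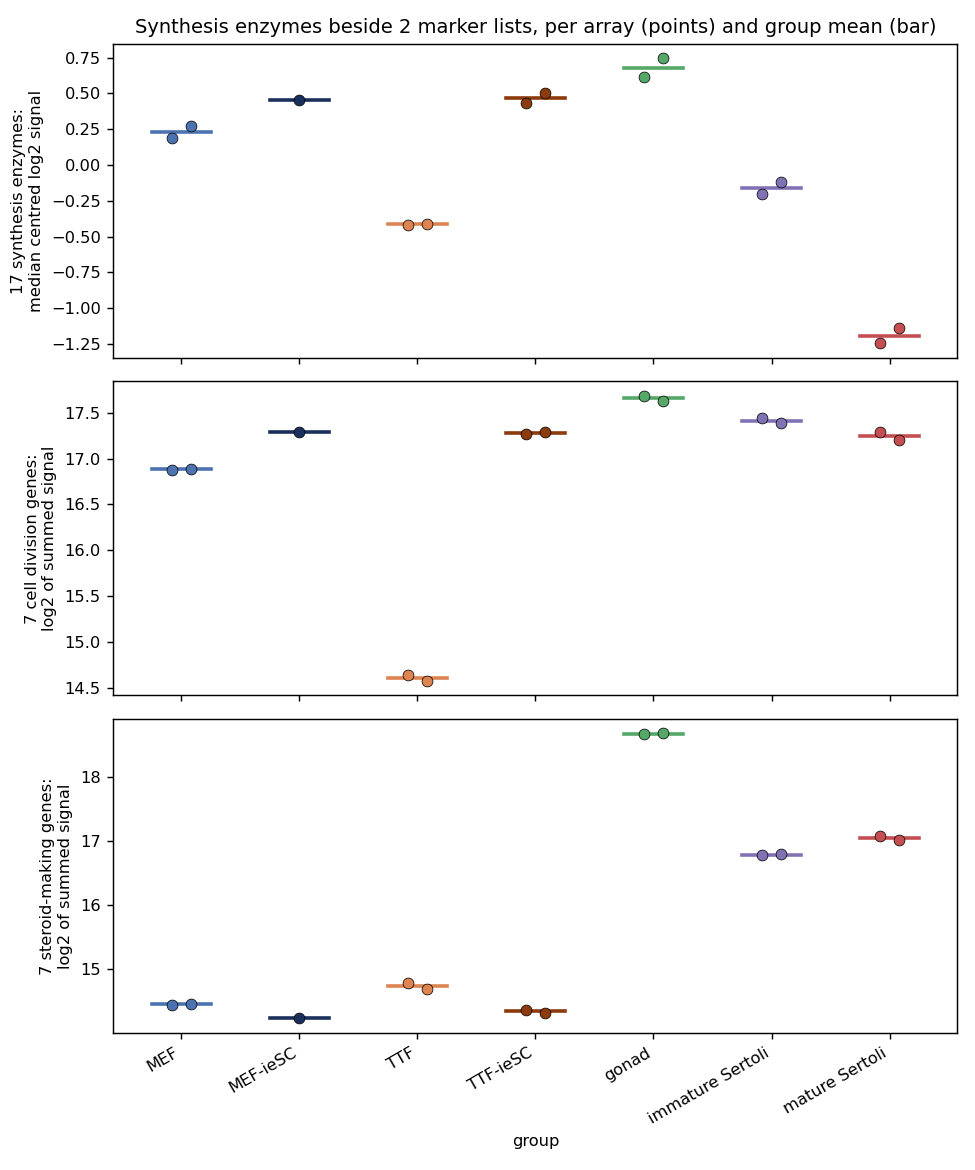
Top panel, median over the 17 synthesis enzymes of the log2 signal centred per gene; the other panels, summed log2 level of the cell division and the steroid-making cell markers, for each array (points) and group mean (bars). TTF is low in both enzymes and cell division markers, while the mature Sertoli cultures, at -1.25 and -1.14 for the enzymes, have cell division markers at 17.21 to 17.29.

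The promoters are shown for 4 genes whose signals carry the patterns below: Hmgcs1 and Cyp51, which rose in only 1 of the inductions, Tm7sf2, which rose in both, and Mylip, which fell in both. RefSeq promoters (GRCm38.p6, 250 bases before to 50 after the start, 5′ to 3′ on the gene's strand) were matched for 24 of the 30 genes. No entry was matched for Abcg1, Fdft1, Fdps, Scarb1, Sqle and Stard4. Capitals mark the sterol regulatory element form TCACNCCAC and the NF-Y box CCAAT on either strand, the second reading ATTGG where it lies on the other strand. The regions are chr13:119690101-119690400 on the plus strand for Hmgcs1, chr5:4104648-4104947 on the minus strand for Cyp51, chr19:6067801-6068100 on the minus strand for Tm7sf2 and chr13:45389492-45389791 on the plus strand for Mylip.
Hmgcs1: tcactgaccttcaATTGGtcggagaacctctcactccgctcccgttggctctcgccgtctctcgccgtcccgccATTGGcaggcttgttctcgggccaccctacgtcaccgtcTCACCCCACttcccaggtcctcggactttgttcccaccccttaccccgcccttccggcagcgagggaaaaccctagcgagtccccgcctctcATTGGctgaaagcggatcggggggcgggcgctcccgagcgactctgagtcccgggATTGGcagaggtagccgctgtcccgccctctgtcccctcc
Cyp51: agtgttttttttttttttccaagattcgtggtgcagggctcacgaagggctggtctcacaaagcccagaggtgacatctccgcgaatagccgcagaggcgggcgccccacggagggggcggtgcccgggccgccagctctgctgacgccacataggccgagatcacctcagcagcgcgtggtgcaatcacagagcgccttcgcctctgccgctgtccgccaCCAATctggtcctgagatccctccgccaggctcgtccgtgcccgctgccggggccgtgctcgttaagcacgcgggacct
Tm7sf2: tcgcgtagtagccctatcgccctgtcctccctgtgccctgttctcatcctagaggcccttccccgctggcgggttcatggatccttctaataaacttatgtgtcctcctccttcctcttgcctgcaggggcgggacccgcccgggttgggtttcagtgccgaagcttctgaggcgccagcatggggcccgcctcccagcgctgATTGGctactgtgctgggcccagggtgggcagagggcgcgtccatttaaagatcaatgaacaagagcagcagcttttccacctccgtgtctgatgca
Mylip: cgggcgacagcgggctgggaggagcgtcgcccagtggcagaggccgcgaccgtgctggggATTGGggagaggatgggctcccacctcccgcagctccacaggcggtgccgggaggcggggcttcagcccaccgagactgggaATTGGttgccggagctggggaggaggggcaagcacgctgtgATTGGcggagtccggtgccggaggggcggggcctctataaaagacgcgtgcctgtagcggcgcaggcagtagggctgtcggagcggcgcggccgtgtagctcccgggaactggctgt

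Hmgcs1 alone of the 24 genes held the sterol regulatory element form, at positions -137 to -129 from its start, with 4 NF-Y boxes around it. The form was in 4.17% of the members' genes and in 1.46% of 13180 tested genes with a promoter. The NF-Y box was in 20 of 24 genes (83.3%), against 42.4% of the tested genes. The Sp1 box GGGCGG was in 22 genes (91.7% against 60.7%) and the E box CACGTG in 6 of 24 genes, against 10.8%. Direct repeats of AGGTCA with 4 bases between, or of GGTCA with 5 between, the sites read by LXR, were in no member's promoter on either strand, and in 0% and 0.0455% of the tested genes, so that count says nothing about the members. A match says that the letters are there, and none of these windows was tested for binding. Only exact strings were searched, and only within these windows. The lack of a match thus does not show that a gene lacks a sterol regulatory element.

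The comparison of TTF-ieSC with TTF showed higher signals for most of the pathway. Of the 29 genes, 22 were higher and 5 lower, against 39.5% and 35.2% of all tested genes, so 27 were called where the share over all genes was 74.7%. The median difference was 0.875 over the 29 genes and 0.056 over all tested genes. Of the 17 enzymes, 15 were higher, Mvk was lower (-0.44 ± 0.08) and Lss was not called (0.19 ± 0.09, adjusted p = 0.0733). Lss was called under 4 alternatives, among them a fit without either gonad array (adjusted p = 0.046).

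In MEF-ieSC against MEF, with 1 induced array, 16 genes were higher and 4 lower. The shares over all tested genes were 34.3% and 33.6%, or 67.9% in either direction, close to the 20 of 29 called here. Of the enzymes, 7 were higher, Lss and Cyp51 were lower and 8 were not called. The median difference was 0.327 over the 29 genes and 0.005 over all tested genes. A fit on these groups alone did not call Idi1, Fdft1, Nsdhl and Srebf2 (adjusted p from 0.0557 to 0.0919), nor Srebf1 (adjusted p = 0.12).

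**Figure D3:**
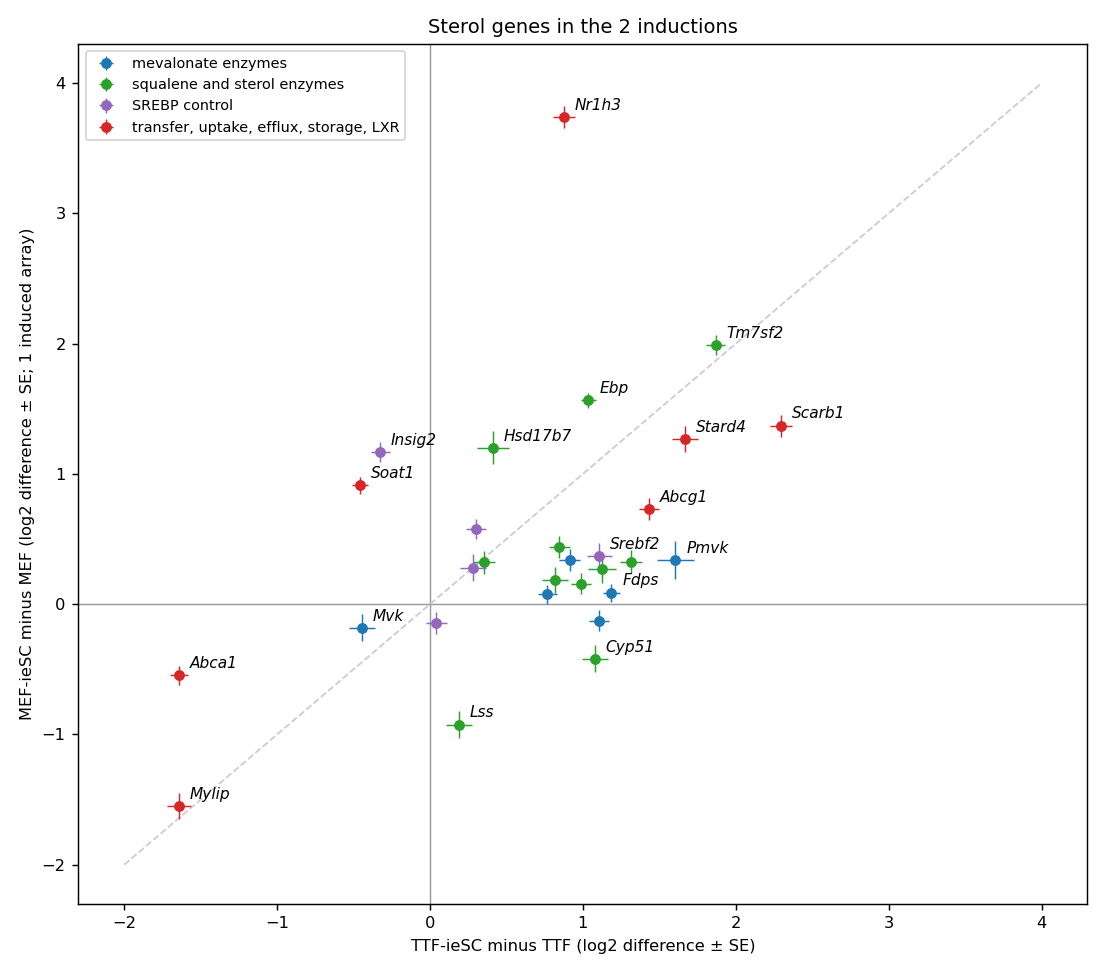
Log2 difference with its SE in TTF-ieSC minus TTF (horizontal) against MEF-ieSC minus MEF (vertical) for the 29 genes, coloured by role. Tm7sf2 (1.87 and 1.99) lies near the diagonal, while most enzymes lie to the right of it, and Nr1h3, Insig2 and Soat1 lie above it.

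The mevalonate enzymes differed between the inductions. Fdps, which makes farnesyl diphosphate, had signals of 14.81 and 14.83 in TTF and 15.97 and 16.03 in TTF-ieSC. It had 16.08 and 16.16 in MEF and 16.21 in MEF-ieSC. In the native samples it was 16.45 and 16.55 in the gonad, 15.40 and 15.46 in the immature cultures and 14.16 and 14.17 in the mature cultures. TTF and the mature cultures were thus the low groups and the gonad the high one, with no overlap between any of the groups. Fdps was 2.28-fold higher in TTF-ieSC than in TTF (log2 difference 1.19 ± 0.06, adjusted p = 1.31e-07), while the difference from MEF to MEF-ieSC was 0.09 ± 0.07 (adjusted p = 0.287).

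The other mevalonate genes had the same contrast between inductions, except Mvk. Hmgcs1, HMG-CoA synthase, was higher by 1.11 ± 0.07 from TTF, and its difference from MEF was -0.13 ± 0.08 (adjusted p = 0.205). Pmvk, phosphomevalonate kinase, was higher by 1.60 ± 0.12 from TTF, with 0.34 ± 0.15 from MEF (adjusted p = 0.0688). Mvd, the decarboxylase that makes isopentenyl diphosphate, was higher by 0.77 ± 0.06 from TTF, with 0.07 ± 0.08 from MEF. Idi1, isopentenyl diphosphate isomerase, was called in both, at 0.91 ± 0.07 and 0.34 ± 0.09. Mvk, mevalonate kinase, was lower from TTF, and its difference from MEF was -0.18 ± 0.10 (adjusted p = 0.154). Pmvk was called from MEF under 5 alternatives, among them without MEF replicate 2 (0.45, adjusted p = 0.0403).

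Tm7sf2, a sterol 14-reductase, had the widest range of the enzymes, 3.99 between group means. Its signals were 13.02 and 13.15 in TTF, 13.14 and 13.10 in MEF, 14.99 and 14.92 in TTF-ieSC and 15.11 in MEF-ieSC. They were 14.82 and 14.76 in the gonad, 11.53 and 11.61 in the immature cultures and 11.15 and 11.08 in the mature cultures. Both kinds of induced cells and the gonad were thus high, the fibroblasts were between and overlapped each other, and the Sertoli cultures were low. The rise was 3.65-fold from TTF (1.87 ± 0.06, adjusted p = 1.47e-08) and 3.97-fold from MEF (1.99 ± 0.08, adjusted p = 6.21e-08). The test of the difference between these rises did not pass (-0.12 ± 0.10, adjusted p = 0.348).

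Ebp, the sterol isomerase, also rose in both. It was 14.968 and 15.005 in MEF, 15.37 and 15.37 in TTF, 16.41 and 16.41 in TTF-ieSC and 16.55 in MEF-ieSC. The gonad had 15.11 and 15.11, the immature cultures 15.17 and 15.08 and the mature cultures 15.58 and 15.60. All 3 induced arrays were above every other array. The rise was 1.04 ± 0.05 from TTF and 1.57 ± 0.06 from MEF.

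Cyp51, which removes the 14-methyl group of lanosterol, went opposite ways. It was 10.70 and 10.80 in TTF and 11.81 and 11.85 in TTF-ieSC, but 12.29 and 12.29 in MEF and 11.87 in MEF-ieSC. The gonad had 11.995 and 11.837, the immature cultures 11.50 and 11.31 and the mature cultures 10.07 and 9.95. The induced arrays lay between the 2 fibroblast groups, close to each other, and the MEF-ieSC array fell within the gonad arrays. The difference was 1.08 ± 0.08 from TTF (adjusted p = 3.89e-06) and -0.42 ± 0.10 from MEF (adjusted p = 0.0065).

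Lss, which closes squalene epoxide to lanosterol, was lower after induction from MEF. It was 11.91 and 11.84 in MEF and 10.95 in MEF-ieSC, a fall of 0.92 ± 0.10 (adjusted p = 6.39e-05). It was 10.87 and 10.76 in TTF and 11.03 and 10.98 in TTF-ieSC. The gonad had 12.42 and 12.20, the immature cultures 11.57 and 11.45 and the mature cultures 10.32 and 10.21. MEF and gonad were thus the high groups, and the induced arrays stood just above TTF.

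The remaining sterol enzymes were called higher from TTF, by 0.35 ± 0.07 for Nsdhl, the 4-decarboxylase, up to 1.31 ± 0.07 for Fdft1, squalene synthase. Between these were Hsd17b7, the 3-ketosteroid reductase (0.41 ± 0.10), Sc5d, the 5-desaturase (0.82 ± 0.08), Sqle, squalene epoxidase (0.85 ± 0.07), Dhcr7, which reduces 7-dehydrocholesterol (0.99 ± 0.07), and Msmo1, the 4-methyl oxidase (1.13 ± 0.09). From MEF, Fdft1 (0.33 ± 0.09), Sqle (0.44 ± 0.08), Nsdhl (0.32 ± 0.09) and Hsd17b7 (1.20 ± 0.13) were called higher. Msmo1 (0.27 ± 0.11, adjusted p = 0.059), Sc5d (0.19 ± 0.10, adjusted p = 0.134) and Dhcr7 (0.16 ± 0.08, adjusted p = 0.123) were not called. Msmo1 was called under 6 alternatives, among them without MEF replicate 2 (0.35, adjusted p = 0.0415). The 2 features of Fdft1 did not read alike. The values here are of the brighter one, and the other stood near the array median, at 6.62 to 7.95, with a difference of 0.155 from TTF.

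Of the 5 SREBP control genes, 3 were higher and 1 lower from TTF, and 4 were higher from MEF. The shares over all tested genes were 39.5% and 35.2% from TTF, and 34.3% and 33.6% from MEF. In either direction 80% of the 5 were called in each, against 74.7% and 67.9% of all tested genes. With only 5 genes, neither count is far from its share. Srebf2, which encodes the SREBP most tied to cholesterol genes, was higher by 1.11 ± 0.08 from TTF and by 0.37 ± 0.10 from MEF. Srebf1, tied more to fatty acid genes, was higher by 0.28 ± 0.08 and 0.28 ± 0.10. Both Srebf1 calls were lost under some alternatives, from TTF without TTF replicate 2 (adjusted p = 0.0596) and from MEF without MEF replicate 1 (adjusted p = 0.136). Insig1, an SREBP target, was higher by 0.30 ± 0.06 and 0.58 ± 0.08. Scap was not called in either (0.04 ± 0.07 and -0.15 ± 0.09).

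Insig2 went opposite ways in the inductions. It was 14.82 and 14.74 in TTF and 14.49 and 14.42 in TTF-ieSC, a fall of 0.33 ± 0.06 (adjusted p = 0.00135). It was 12.9995 and 12.9827 in MEF and 14.16 in MEF-ieSC, a rise of 1.17 ± 0.08 (adjusted p = 1.72e-06). The gonad had 11.92 and 11.92, the immature cultures 13.12 and 12.97 and the mature cultures 12.88 and 12.84. TTF was the highest group, the induced cells came next, and the gonad was lowest, 2.86 under TTF.

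Scarb1, the HDL receptor that takes up cholesteryl ester, had the largest rise from TTF of the 29 genes, each read on its brightest feature. It was 11.42 and 11.40 in TTF and 13.70 and 13.72 in TTF-ieSC, 12.62 and 12.41 in MEF and 13.89 in MEF-ieSC. The gonad had 14.89 and 14.83, the immature cultures 13.69 and 13.74 and the mature cultures 12.63 and 12.67. The TTF-ieSC arrays lay within the range of the immature cultures, and the gonad was highest. The rise was 4.91-fold from TTF (2.30 ± 0.07, adjusted p = 6.89e-09) and 2.58-fold from MEF (1.37 ± 0.09, adjusted p = 1.27e-06). On its dimmer feature the differences were 1.71 and 1.03. The former was under the rise of Tm7sf2 from TTF on either of its features (1.87 and 1.95).

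Stard4, which moves sterol between membranes, was higher in both. It was 11.14 and 11.04 in TTF, 11.47 and 11.54 in MEF, 12.84 and 12.68 in TTF-ieSC and 12.77 in MEF-ieSC. The gonad had 12.28 and 12.19, the immature cultures 12.02 and 11.86 and the mature cultures 10.61 and 10.50. On its brighter feature, which these values are from, all 3 induced arrays were above the rest and the mature cultures were lowest. The rise was 1.67 ± 0.08 from TTF and 1.27 ± 0.10 from MEF. Its dimmer feature differed by 1.71 and by 0.42. There, TTF-ieSC replicate 1 (9.917) lay just under immature Sertoli replicate 2 (9.922). TTF (8.27 and 8.26) was lower there than the mature cultures (8.48 and 8.58).

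Nr1h3, which encodes LXR alpha, had the largest rise from MEF. It was 8.19 and 8.25 in MEF and 11.95 in MEF-ieSC, a 13.3-fold difference (3.74 ± 0.09, adjusted p = 2.51e-09). It was 10.32 and 10.36 in TTF and 11.19 and 11.24 in TTF-ieSC, a difference of 0.88 ± 0.07. The gonad had 8.13 and 8.24, the immature cultures 10.28 and 10.31 and the mature cultures 10.52 and 10.71. MEF and gonad overlapped at the low end, and the induced arrays were highest.

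Abca1 and Mylip, both known LXR targets, fell in both inductions. Abca1, which passes cholesterol to lipid-poor apolipoproteins, was 12.09 and 12.15 in TTF and 10.45 and 10.50 in TTF-ieSC, a fall of 1.64 ± 0.06 (adjusted p = 1.95e-08). It was 11.11 and 11.08 in MEF and 10.55 in MEF-ieSC, a fall of 0.55 ± 0.07. The gonad had 11.90 and 11.91, the immature cultures 12.90 and 13.05 and the mature cultures 12.14 and 12.15. The 3 induced arrays were the lowest of all and the immature cultures the highest.

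Mylip, a ubiquitin ligase that sends lipoprotein receptors to degradation, was 12.83 and 12.75 in TTF, 12.90 and 12.89 in MEF, 11.15 and 11.15 in TTF-ieSC and 11.34 in MEF-ieSC. The gonad had 11.64 and 11.49, the immature cultures 9.80 and 9.58 and the mature cultures 9.09 and 9.02. Fibroblasts were thus the high groups and the Sertoli cultures the low ones. The fall was 1.64 ± 0.08 from TTF and 1.55 ± 0.10 from MEF, with -1.02 and -0.32 on its dimmer feature. These falls did not pass the test of a difference (adjusted p = 0.59), though with the mean of both features they did (-0.40, adjusted p = 0.0306).

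Abcg1, an efflux transporter to HDL and also an LXR target, moved the other way from Abca1. It was 9.16 and 9.22 in TTF, 10.62 and 10.63 in TTF-ieSC, 9.45 and 9.49 in MEF and 10.20 in MEF-ieSC. The gonad had 12.72 and 12.60, the immature cultures 11.20 and 11.06 and the mature cultures 8.48 and 8.42. No 2 groups overlapped, and the range of 4.21 between gonad and mature cultures was the widest of the 29 genes. The rise was 1.43 ± 0.07 from TTF and 0.73 ± 0.08 from MEF.

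Soat1, which esterifies cholesterol for storage, went opposite ways. It was 11.25 and 11.22 in TTF and 10.76 and 10.78 in TTF-ieSC, a fall of 0.46 ± 0.05. It was 9.93 and 9.90 in MEF and 10.82 in MEF-ieSC, a rise of 0.91 ± 0.07. The gonad had 10.14 and 10.19, the immature cultures 10.70 and 10.79 and the mature cultures 11.28 and 11.22. The TTF-ieSC arrays lay within the immature cultures and the MEF-ieSC array just above them.

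**Figure D4:**
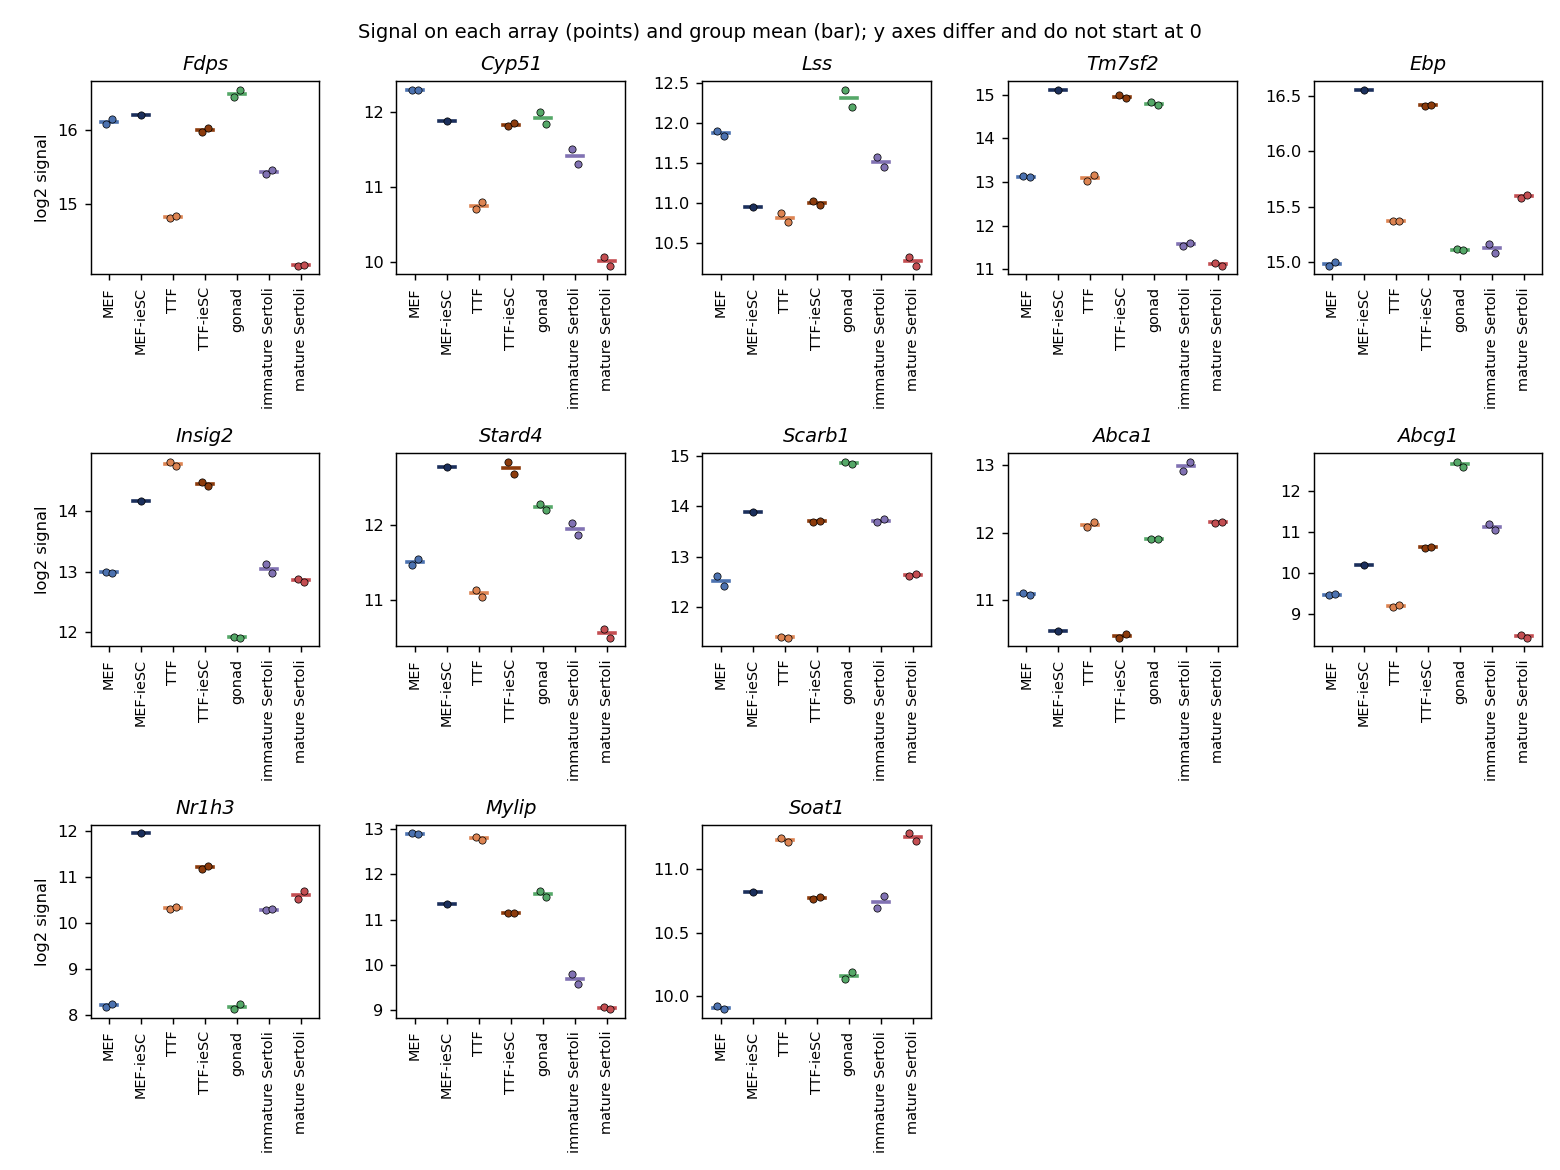
Log2 signal of the 13 genes described array by array, with each array as a point and each group mean as a bar; the vertical axes differ and do not start at 0. For Cyp51, Insig2 and Soat1 the induced arrays lie between MEF and TTF, and for Tm7sf2, Ebp and Stard4 they lie above both.

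Across the inductions, 14 genes were called higher in both and Abca1 and Mylip lower in both, against 25.9% and 23.9% of all tested genes. Cyp51 was higher from TTF and lower from MEF, and Insig2 and Soat1 were lower from TTF and higher from MEF, patterns of 3.66% and 3.28% of all tested genes. A further 7 genes were called higher from TTF and not called from MEF, as were 9.95% of all tested genes. The difference itself was called for 23 genes, 16 with the larger value from TTF and 7 with the larger value from MEF, against 28.9% and 25.2% of all tested genes and 54.1% in either direction. Of the enzymes, 12 had the larger value from TTF, and Hsd17b7 and Ebp had the larger value from MEF. By construction this difference is that of TTF-ieSC and MEF-ieSC minus that of TTF and MEF, and both of these are given next.

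In TTF against MEF, the starting fibroblasts, 7 genes were higher and 16 lower, against 31.1% and 35.5% of all tested genes. In either direction the share was 79.3% of the 29 genes and 66.6% of all genes. Of the enzymes 12 were lower in TTF, with Cyp51 at -1.54 ± 0.08, Fdps at -1.30 ± 0.06, Pmvk at -1.30 ± 0.12, Hmgcs1 at -1.14 ± 0.07 and Lss at -1.06 ± 0.09. Hsd17b7 (0.63 ± 0.10) and Ebp (0.39 ± 0.05) were higher. Outside the enzymes, Nr1h3 (2.12 ± 0.07), Insig2 (1.79 ± 0.06), Soat1 (1.32 ± 0.05) and Abca1 (1.02 ± 0.06) were higher in TTF, and Scarb1 (-1.11 ± 0.07) and Srebf2 (-0.69 ± 0.08) were lower. Cell division markers were lower in TTF too, and their part in this was not tested.

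TTF-ieSC and MEF-ieSC differed in 4 of 29 genes. Abcg1 (0.42 ± 0.08), Scap (0.42 ± 0.09) and Insig2 (0.29 ± 0.08, adjusted p = 0.0397) were higher in TTF-ieSC and Nr1h3 was lower (-0.74 ± 0.09, adjusted p = 0.00104). Of all tested genes 7.53% were higher and 6.76% lower, or 14.3% in either direction, close to the 13.8% of the 29 genes. None of the 17 enzymes was called by limma, and 4 had an unadjusted p under 0.05. Array weights called 2, Mvk and Sqle, and a variance trend with robust fitting called 1. The differences of the 17 enzymes ran from -0.33 to 0.17, with SE from 0.06 to 0.15, and the single MEF-ieSC array limits the precision. The call of Scap was lost without TTF-ieSC replicate 1 or replicate 2 (adjusted p = 0.0546 and 0.0518). That of Insig2 was lost without either MEF, TTF-ieSC, gonad or mature Sertoli array (adjusted p from 0.0505 to 0.143), with no filter (adjusted p = 0.0587) and with the mean of features (adjusted p = 0.0705). A fit on these groups alone called none of the 29 genes, with 8 at an unadjusted p under 0.05.

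Against the immature Sertoli cultures, TTF-ieSC had higher signals for most enzymes. Of the 29 genes, 20 were higher and 5 lower, against 37.8% and 39.0% of all tested genes and 76.8% in either direction. The enzymes had 14 higher and 2 lower, with a median of 0.653. Tm7sf2 was higher by 3.39 ± 0.06, Sc5d by 1.43 ± 0.08, Ebp by 1.29 ± 0.05 and Hsd17b7 by 1.10 ± 0.10, while Dhcr7 (-0.57 ± 0.07) and Lss (-0.51 ± 0.09) were lower. The call of Idi1 (0.20 ± 0.07) was lost without any 1 of the 4 arrays compared (adjusted p from 0.0523 to 0.105). Among the other genes Mylip (1.46 ± 0.08) and Insig2 (1.40 ± 0.06) were higher and Abca1 was lower by the widest margin (-2.5 ± 0.06).

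Against the mature cultures the difference was larger. Here 25 genes were higher and 2 lower, against 43.0% and 36.6% of all tested genes and 79.6% in either direction, and 16 of 17 enzymes were higher with a median of 1.65. Tm7sf2 (3.84 ± 0.06), Stard4 (2.21 ± 0.08), Abcg1 (2.17 ± 0.07), Hsd17b7 (2.12 ± 0.10), Mylip (2.09 ± 0.08) and Srebf2 (1.92 ± 0.08) were the most different. Sc5d was not called (-0.05 ± 0.08), and Abca1 (-1.67 ± 0.06) and Soat1 (-0.48 ± 0.05) were lower.

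Against the uncultured gonad, 11 of the 29 genes were higher in TTF-ieSC and 12 lower. These shares are near the 38.2% and 41.5% of all tested genes, or 79.7% in either direction. The mevalonate enzymes were lower, 5 of 6 called, led by Mvk (-1.12 ± 0.08), and so were Dhcr7 (-1.49 ± 0.07) and Lss (-1.31 ± 0.09). Sc5d (1.63 ± 0.08), Ebp (1.30 ± 0.05) and Hsd17b7 (0.67 ± 0.10) were higher. Nr1h3 (3.03 ± 0.07), Insig2 (2.54 ± 0.06) and Srebf2 (0.92 ± 0.08) were higher, and Abcg1 (-2.04 ± 0.07), Abca1 (-1.43 ± 0.06) and Scarb1 (-1.15 ± 0.07) were lower. The gonad is whole tissue, with Cyp11a1, the side-chain cleavage enzyme of steroid-making cells, at 15.60 against 5.04 in TTF-ieSC, and the part of those cells was not tested.

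The native samples descended in most of the enzymes, from gonad to immature to mature cultures. Between immature cultures and gonad 5 genes were higher and 21 lower, against 32.6% and 37.9% of all tested genes and 70.5% in either direction, with 15 of 17 enzymes lower and none higher. Sc5d (0.21 ± 0.08, adjusted p = 0.0518) was called higher under 8 alternatives: with a stricter filter, each array centred on its median, a gene's features averaged, a variance trend, the block, and without immature Sertoli replicate 1 or either MEF array (adjusted p from 0.0197 to 0.0487). Tm7sf2 was lower by the widest margin (-3.22 ± 0.06), and Fdps (-1.07 ± 0.06) and Mvd (-1.16 ± 0.06) followed. Mylip (-1.88 ± 0.08), Abcg1 (-1.53 ± 0.07) and Scarb1 (-1.14 ± 0.07) were lower too, and Nr1h3 (2.11 ± 0.07), Insig2 (1.13 ± 0.06) and Abca1 (1.07 ± 0.06) were higher. Stard4 was lower on its brighter feature (-0.30 ± 0.08, adjusted p = 0.012) and higher by 0.78 on the other. Its sign turned with the mean of features (0.24, adjusted p = 0.00152), so no direction is given for it here. Age and culture both differ between these groups and cannot be told apart.

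Mature cultures were lower than immature ones in 25 of 29 genes and higher in 4, against 39.6% and 28.9% of all tested genes and 68.5% in either direction. Of the enzymes 15 were lower, with a median of -1.02 over all 17. Dhcr7 (-1.64 ± 0.07), Idi1 (-1.45 ± 0.07), Cyp51 (-1.39 ± 0.08), Fdps (-1.27 ± 0.06), Lss (-1.25 ± 0.09) and Sqle (-1.25 ± 0.07) had the widest falls, and Sc5d (1.48 ± 0.08) and Ebp (0.47 ± 0.05) were higher. All 5 SREBP control genes were lower, with Srebf1 at -1.0 ± 0.08, Insig1 at -1.0 ± 0.06 and Srebf2 at -0.97 ± 0.08. The calls of Scap (-0.22 ± 0.07) and Insig2 (-0.19 ± 0.06) were lost when 1 array was left out (adjusted p up to 0.134). Abcg1 was at -2.68 ± 0.07, and Soat1 (0.51 ± 0.05) and Nr1h3 (0.32 ± 0.07) were higher. Days in culture were 7 and 3, so age and culture time cannot be told apart.

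**Figure D5:**
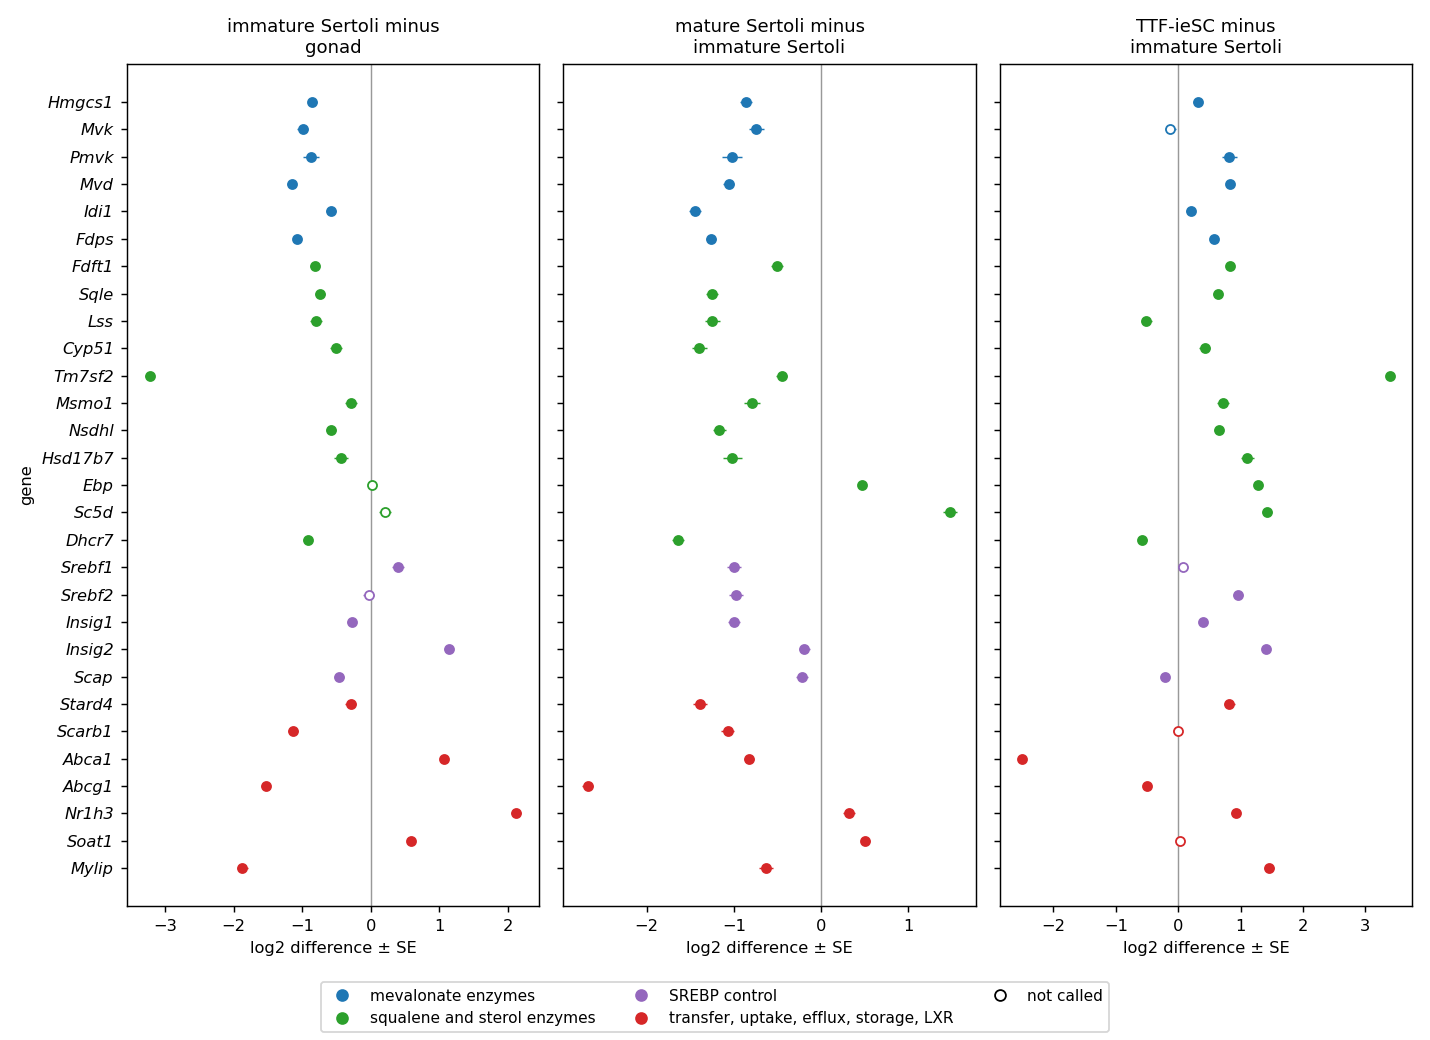
Log2 difference with its SE for each of the 29 genes, by role, in immature cultures minus gonad, mature minus immature cultures and TTF-ieSC minus immature cultures (left to right), with open symbols for genes not called. In mature minus immature Sertoli cultures nearly all symbols lie to the left of 0, with Sc5d (1.48), Soat1 (0.51), Ebp (0.47) and Nr1h3 (0.32) to the right.

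The native cultures were also set against the fibroblasts. In immature cultures against MEF, 9 genes were higher and 14 lower, against 36.2% and 35.6% of all tested genes and 71.8% in either direction. Of the enzymes 12 were lower, led by Tm7sf2 (-1.56 ± 0.06) and Sc5d (-1.20 ± 0.08), and Dhcr7 (0.75 ± 0.07) was higher. Nr1h3 (2.08 ± 0.07), Abca1 (1.88 ± 0.06), Abcg1 (1.66 ± 0.07) and Scarb1 (1.20 ± 0.07) were higher, and Mylip was lower by 3.21 ± 0.08. In mature cultures against TTF, 4 genes were higher and 18 lower, against 36.6% and 40.4% and 77.1% in either direction. Mylip (-3.74 ± 0.08), Tm7sf2 (-1.97 ± 0.06), Insig2 (-1.92 ± 0.06) and Hsd17b7 (-1.71 ± 0.10) were lower, and Scarb1 (1.24 ± 0.07) and Sc5d (0.86 ± 0.08) were higher. The dimmer feature of Scarb1 differed by 0.65 in mature cultures against TTF. That of Mylip differed by -2.72 there and by -1.785 in immature cultures against MEF.

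The neighbouring lipid genes were read from named lists. Of 11 fatty acid synthesis genes under SREBP control, 9 were higher and none lower in TTF-ieSC against TTF, where 39.5% and 35.2% of all tested genes were, with a median of 1.164. Mid1ip1, which activates acetyl-CoA carboxylase, was higher by 2.92 ± 0.08, and Fasn, fatty acid synthase, by 1.42 ± 0.07. From MEF, 6 were higher and 1 lower, against 34.3% and 33.6%, with Mid1ip1 at 1.10 ± 0.10 and Fasn at 0.83 ± 0.08. In mature against immature cultures 8 were lower and 1 higher, against 39.6% and 28.9%, and Fasn was lower by 1.45 ± 0.07 while Mid1ip1 was not called (0.10 ± 0.08).

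Of 9 isoprenoid branch genes, 3 were higher and 4 lower in TTF-ieSC against TTF, near the shares of all tested genes (39.5% and 35.2%), with a median of 0.044. Dhdds, of dolichol synthesis, was higher by 1.12 ± 0.09, and Fnta, a farnesyltransferase subunit, was at -0.63 ± 0.08. Of 9 genes of SREBP processing and sterol-regulated degradation, 1 was higher and 5 lower in TTF-ieSC against TTF, against the same shares. Sec23a, of the COPII coat that carries SREBP to the Golgi, was at -1.0 ± 0.05 from TTF and -1.52 ± 0.06 from MEF, and Erlin2, of sterol-regulated degradation, at -0.63 ± 0.07 and -0.58 ± 0.09.

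Of 15 further genes of sterol uptake, transport and oxysterols, 6 were higher and 7 lower in TTF-ieSC against TTF, also near those shares. The pair with the widest differences from TTF make and remove 27-hydroxycholesterol. Cyp27a1, the sterol 27-hydroxylase, had group means of 11.52 in TTF-ieSC and 11.50 in MEF-ieSC and of 7.02 to 8.82 elsewhere, and rose by 3.35 ± 0.13 from TTF and 3.97 ± 0.15 from MEF. Cyp7b1, the oxysterol 7-hydroxylase, was 5.44 and 5.07 in the induced cells, under the array median, and 10.16 to 12.45 elsewhere, with differences of -7.02 ± 0.21 from TTF and -6.45 ± 0.26 from MEF. Since the background of the arrays is not known, the size of that fall depends on it. So does the size of the rise of Cyp27a1 from MEF, where its mean was 7.53, near the array median. Ch25h, which makes 25-hydroxycholesterol and was named after its values were seen, fell in both inductions, with differences of -3.29 ± 0.08 from TTF and -4.86 ± 0.10 from MEF, the latter wider than that of Cyp27a1. Its level in the induced cells (7.65 and 7.58) was near the array median.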

How the data were processed

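RNA of 13 samples was measured on 1-colour Agilent arrays. The authors deposited log2 signals for 62976 features, already on a common distribution over the arrays. The submitters' processing notes name limma and no version. How features were extracted and background removed is not given in the sources used here. Detection flags were not in the table. Arrays have no depth, and precision is set by how many there are.

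Symbols came from the platform annotation, updated with a RefSeq gene table (GRCm38.p6), for 31465 features and 20738 genes; Msmo1 is listed under an older symbol. A gene was represented by its brightest feature, which matters for the 12 members with several. The 16658 genes with a signal over the array median on 2 or more arrays were tested. One fit over the 7 groups used lmFit and eBayes (limma 3.58.1, R 4.3.3; 6 residual and 2.18 prior degrees of freedom), with Benjamini-Hochberg adjustment over all tested genes and two-sided tests. For MEF-ieSC, with 1 array, the spread was borrowed from the other groups. The fit was tested on simulated data. A log2 change of 0.5 was recovered in 54% of changed genes for TTF-ieSC against TTF and in 38% for MEF-ieSC against MEF. At a change of 1 these shares were 94% and 82%. Small changes were thus missed more often from MEF than from TTF.

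The members and lists were chosen with earlier results of these data known. Array-by-array values are given for the member of each role with the widest range of group means, the 3 largest called rises and falls in each induction, and members called opposite ways. From each other list, the 2 called genes with the widest difference in TTF-ieSC against TTF are named. Ch25h and, of the marker lists, Amh, Cldn11, Clu, Cyp11a1, Dcn, Krt18, Ptgds, Sox9 and Wt1 were named after their values were seen. The alternatives were other normalizations, filters, features, variance models, array weights, a block, a minimum difference, smaller fits and leaving out each array.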

Additional observations from a re-analysis of the deposited data

Results flagged for a closer look

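For 23 members the change in the TTF induction differed from that in the MEF induction by limma's test of the difference, at an adjusted p under 0.05. The values are log2 differences, TTF-ieSC against TTF minus MEF-ieSC against MEF. Of the mevalonate enzymes, Pmvk differed by 1.26, Hmgcs1 by 1.23, Fdps by 1.10, Mvd by 0.69 and Idi1 by 0.57. Of the sterol enzymes, Cyp51 differed by 1.5, Lss by 1.11, Fdft1 by 0.99, Msmo1 by 0.85, Dhcr7 by 0.83, Sc5d by 0.63 and Sqle by 0.41, and Ebp by -0.53 and Hsd17b7 by -0.79 the other way. Srebf2 differed by 0.74, Insig1 by -0.28 and Insig2 by -1.5. Scarb1 differed by 0.93, Abcg1 by 0.70, Stard4 by 0.40, Abca1 by -1.10, Soat1 by -1.37 and Nr1h3 by -2.86. The value for Fdft1 rests on its brighter feature; with the mean of both features it was 0.20 (adjusted p = 0.516). The calls of Insig1 and Stard4 were lost without TTF-ieSC replicate 1 (adjusted p = 0.089 and 0.0898). All of these rest on 1 MEF-ieSC array.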

How the results depend on the processing

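The counts of members called stayed within 1.5 times their value under every alternative run but the following. With a minimum log2 difference of 1 they were 14 in TTF-ieSC against TTF, 8 in MEF-ieSC against MEF, 10 in TTF against MEF, 0 in TTF-ieSC against MEF-ieSC, 7 against the immature cultures, 10 against the gonad, 9 in immature cultures against gonad, 15 in mature against immature cultures, 7 in immature cultures against MEF, 10 in mature cultures against TTF and 9 for the difference of the inductions. In TTF-ieSC against MEF-ieSC the groups alone gave 0. Leaving out 1 array in turn gave 2 to 5 calls there, with 2 without TTF-ieSC replicate 1, and array weights gave 3 higher and 3 lower. Of the differences called, only that of Stard4 in immature cultures against gonad turned its sign, to 0.242 with the mean of features; small differences that were not called turned too. The titles number the arrays between 1 and 16, with the duplicates of a group 8 apart, and the labels do not say what the number marks. All 15 pairs of groups had a positive correlation between their duplicates' gaps (0.013 to 0.184), and 4 were over 0.1. The main fit used no block, and whether the number marks a shared step cannot be told from these values. With the title number as a block, 28 members were called in TTF-ieSC against TTF, with Lss (0.19) added, and 23 in MEF-ieSC against MEF, where Mvk (-0.23), Pmvk (0.25) and Msmo1 (0.22) were added.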
